A study of Mus musculus with 2 samples.

Results

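The genes described here encode kallikreins (*Klk*), serpins, Kazal-type inhibitors (*Spink*) and cystatins in the mouse tongue. They were taken by symbol from a table of 18498 rows, as every row that begins with *Klk*, *Serpin*, *Spink*, *Cst* or *Stfa* followed by the number or letter of a family member, with the *Cstf* genes left out. This gave 87 rows and 87 distinct symbols, of which 19 were kallikreins, 49 serpins, 9 *Spink* genes and 9 cystatins. The remaining row, *Cstad*, matched by its letters and does not encode a cystatin. The rule uses symbols and no measured value, although earlier results of these data were known when it was written. RNA was sequenced from the circumvallate papillae (CvP), which hold the taste buds of the posterior tongue together with epithelium around them, and from tongue epithelium without papillae (Epi). Both came from untreated male C57BL/6J mice of 12 to 30 weeks, and the RNA of at least 20 mice was pooled into 1 library per tissue. There was therefore no replicate, no p-value was calculated, and every comparison is between these 2 libraries.

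Kallikreins are secreted serine proteases. In stratified epithelium *Klk5*, *Klk7* and *Klk14* cleave the proteins that hold cornified cells together, and the inhibitor LEKTI, the product of *Spink5*, restrains them. Serpins trap a protease with an exposed loop, the reactive centre loop, which the enzyme cleaves and to which it stays bound. Clade B serpins act mainly inside cells, while most others are secreted. Cystatins block cysteine proteases such as the cathepsins. The stefins among them (*Csta*, *Cstb* and the *Stfa* genes) are cytosolic, whereas *Cst3* and *Cst6* encode secreted inhibitors.

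Levels are RPKM values as deposited, that is, reads per kilobase of gene model scaled to the number of mapped reads. The smallest step between values of the 163 rows listed at 0.1 kb is the worth of 1 read and gave about 28373653 mapped reads for the CvP and 27908511 for the Epi. Ratios carry a 95% exact (Clopper-Pearson) interval from estimated reads, which covers counting error only and not the difference between animals or dissections. The typical gene was higher in the CvP, with a median CvP/Epi ratio of 1.31 over the 10363 rows that reached an RPKM of 1 in both libraries. Where a pair of values is given for a gene or list, the first is that of the CvP. Of 8 housekeeping genes 7 were within 3-fold. The tissue labels were checked against marker lists. All 8 keratinocyte markers were present in both libraries, and all 11 taste cell markers were more than 3-fold higher in the CvP, with a summed RPKM of 674 against 6.80. The 8 skeletal muscle markers summed to 3.93 in the CvP against 54.8 in the Epi, and the 16 gland markers found summed to 26.6 and 430.2, of which *Lipf* made 1.96 and 313. Gland markers went both ways, and of the 10 that reached an RPKM of 1, 6 were past 3-fold toward the Epi and 2, *Pigr* (12.0 and 0.54) and *Aqp5* (6.09 and 0.69), toward the CvP. Fibroblast markers (7) summed to 27.6 and 129, nearly all of it *Dcn* (26.1 and 128), with *Col1a1* at 0.06 and 0.18. The other fibroblast marker that reached 1, *Pdgfra*, went the opposite way at 1.30 and 0.07. The 10 neutrophil markers found summed to 1106 and 33.9, of which *Ltf* made 1048 and 28.5, while *Elane* was at 0 in both. The 10 macrophage and T cell markers found summed to 159 and 6.96, and the 4 endothelial markers to 2.83 and 0.27. Liver and pancreas markers were near 0, apart from *Ahsg* (5.16 and 12.3), with *Alb* at 0.02 and 0.04.

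Of the 87 genes, 46 reached an RPKM of 1 in at least one library and 31 reached 10. A difference of more than 3-fold that also reached an RPKM of 1 was found in 7 genes toward the CvP and in 15 toward the Epi. These are 8.05% and 17.2% of the 87, against 10.8% and 1.33% of all rows of the table and 15.9% and 1.96% of the rows that reached 1. All 7 toward the CvP were serpins. Of the 15 toward the Epi, 12 were serpins and 1 each was a kallikrein, a *Spink* gene and a stefin. Because the libraries are of whole tissue, fewer cells of a type and less RNA per cell cannot be told apart here or below. With the stricter limits of an RPKM above 10 in the higher library and a ratio above 3, 2 members passed toward the CvP, *Serpina1e* and *Serpine2*, and 9 toward the Epi. Of all rows 2.35% and 0.6% passed, which is 7.58% and 1.93% of the rows that reached 10. Summed RPKM of the 87 genes was 5018 in the CvP against 9721 in the Epi, or 1.47% and 2.36% of the sum over all rows. Over the 46 genes the median log2 ratio (CvP/Epi), with 0.1 added to each RPKM, was -0.62, against 0.50 over all rows that reached 1. Among the 551 rows of at least 100 in either library, 65.0% were higher in the Epi and 9.07% were past 3-fold toward it. The part of level in these differences was not tested. Summed serpin RPKM was 0.914 times that of the kallikreins in the CvP and 2.44 times in the Epi. *Serpinb12* and *Serpinb3a* carried this difference, and without them the proportions were 0.383 and 0.452.

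**Figure D1:**
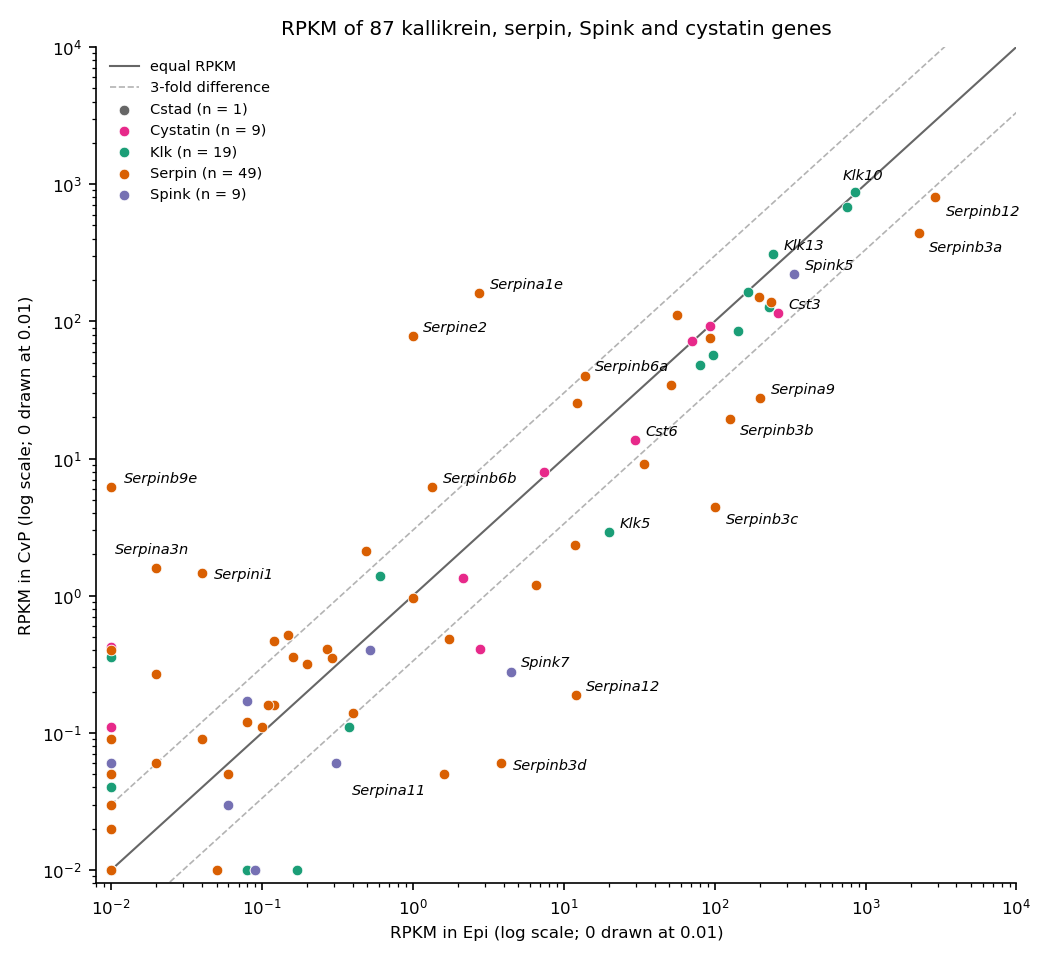
RPKM in the CvP (vertical) against RPKM in the Epi (horizontal) of the 87 genes on log axes, 1 point per gene coloured by family, with values of 0 drawn at 0.01; the solid line marks equal RPKM and the dashed lines a 3-fold difference. The kallikreins of high RPKM lie along the line of equality, and serpins lie farthest from it on both sides, for example *Serpina1e* (160.2 in the CvP, 2.76 in the Epi) and *Serpinb3c* (4.40 and 101).

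Of the 19 kallikrein genes, 10 reached an RPKM of 1, and 9 of these were within 3-fold between the tissues, against 82.1% of all rows that reached 1. Among the 9 genes that reached 10, *Klk10*, *Klk11*, *Klk13* and *Klk14* had CvP/Epi ratios from 0.903 to 1.26, *Klk7*, *Klk8*, *Klk9* and *Klk12* from 0.558 to 0.602, and *Klk5* was lower still. All 19 genes lie on chromosome 7 of NCBI37/mm9 from 50945788 to 51484987, all on the plus strand, and expression was limited to one end of this run. The genes from *Klk14* to *Klk5* held nearly all of it, and *Klk4*, *Klk15*, *Klk1* and the 6 *Klk1b* genes that follow were below 1 in both libraries.

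*Klk10* had the highest RPKM of the family, at 872 in the CvP against 856 in the Epi, a CvP/Epi ratio of 1.02 (95% interval 1.00 to 1.03). *Klk14*, a trypsin-like protease of the cornified layer, followed at 681 and 754, a ratio of 0.903 (0.887 to 0.919). *Klk11* was at 165 in both tissues, with a ratio of 0.997 (0.962 to 1.03). As deposited, these leading members differed by little between the papillae and the surrounding epithelium. *Klk13* was the one gene of high RPKM that was clearly above equality, at 308 in the CvP against 245 in the Epi (ratio 1.26, 1.22 to 1.30), which is below the median ratio of all genes. Divided by that median, all 4 were lower in the CvP, at 0.775 for *Klk10*, 0.688 for *Klk14*, 0.759 for *Klk11* and 0.959 for *Klk13*, and rescaled to a common sum of RPKM all 4 were higher in the CvP, from 1.09 to 1.52, so that their direction depends on the scaling.

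A second set of genes in this run was lower in the CvP by similar amounts. *Klk7*, *Klk8* and *Klk9* lie side by side, while *Klk10* and *Klk11* lie between *Klk9* and *Klk12*. *Klk7*, the chymotrypsin-like enzyme of the cornified layer, had an RPKM of 84.9 in the CvP against 142 in the Epi, a ratio of 0.599 (0.576 to 0.622). The ratio of *Klk8*, or neuropsin, was 0.558 (0.538 to 0.578) from 128 and 229. *Klk9* was at 48.1 and 79.8 (0.602, 0.569 to 0.637) and *Klk12* at 57.0 and 98.1 (0.581, 0.548 to 0.616). The ratios of these 4 genes lay between 0.558 and 0.602 although their levels differed. Such ratios were not particular to kallikreins. Of the 8 housekeeping genes 3 were also lower in the CvP, among them *Hprt* (67.0 and 115, ratio 0.582) and *Rplp0* (577 and 896, 0.644), and 5 were higher. In the GENCODE M1 annotation 22.6% of the exon bases of *Klk14* and 27.9% of those of *Klk8* overlap the gene *2310002F09Rik* on the opposite strand, and strand was not stated to be kept.

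Farthest from even was *Klk5*, which activates other kallikreins. RPKM of *Klk5* was 2.90 in the CvP against 19.9 in the Epi, about 102 and 688 reads, and the Epi/CvP ratio was 6.86 (5.56 to 8.53). It was the only kallikrein past 3-fold at an RPKM of 1 or more. Beside *Klk14*, its RPKM was 235 times lower in the CvP and 37.9 times lower in the Epi. The neighbour *Klk6* differed in the opposite direction at a low level, at 1.40 and 0.61 (CvP/Epi ratio 2.30, 1.39 to 3.94). The glandular kallikreins *Klk1* and *Klk1b*, which are abundant in the mouse submandibular gland, had RPKM values of at most 0.36. *Klk1* had about 9 reads in the CvP and none in the Epi, so that it was at least 2.95-fold higher against a floor of 3 reads, while the exact 95% interval of the ratio has a lower limit of 1.94. *Klk15*, *Klk1b8* and *Klk1b16* were listed at 0 in both. Copies of this group share sequence, and 52.1% of the 75-base windows of the *Klk1* transcript match another gene within 2 mismatches.

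**Figure D2:**
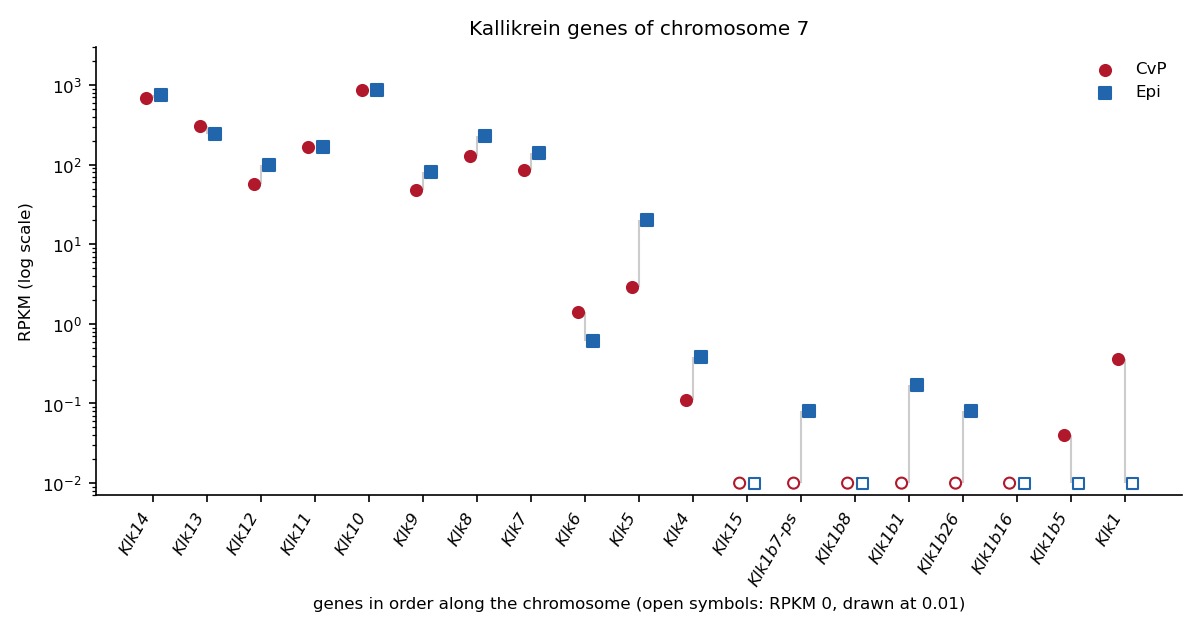
RPKM on a log axis of the 19 kallikrein genes in their order along chromosome 7, circles for the CvP and squares for the Epi, with open symbols for an RPKM of 0 drawn at 0.01. The genes from *Klk14* to *Klk7*, and *Klk5*, lie above 10 in at least one library, the circle and square nearly coincide for *Klk14*, *Klk11* and *Klk10*, and *Klk5* shows the widest gap among them (2.90 and 19.9).

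Of 20 genes found of the 22 listed for the cascade in which these enzymes act, 7 are members described here. Of the other 13, 10 were higher in the CvP, 3 of them past 3-fold, and 0 were past 3-fold toward the Epi, with a median log2 CvP/Epi ratio of 0.64. The corresponding values for all rows that reached 1 are 78.1%, 15.9% and 1.96%, with a median of 0.50. *St14* (matriptase), a membrane protease that starts the cascade, was at 49.1 in the CvP against 29.6 in the Epi, and *Prss8* (prostasin) at 41.8 and 51.7. The membrane-bound inhibitor *Spint1* was at 89.6 and 77.9. The 3 genes past 3-fold toward the CvP were *Elf3*, an epithelial transcription factor (90.5 and 8.32), *Htra1*, a secreted serine protease (32.3 and 5.04), and *F2rl1*, the receptor PAR2 that kallikreins can cleave (12.8 and 2.28). Among 12 genes of the corneodesmosome and desmosome, which include targets of *Klk5*, *Klk7* and *Klk14*, 3 were past 3-fold toward the Epi and 1 toward the CvP. *Dsg1a*, desmoglein 1, was at 82.1 and 326 and *Dsc1*, desmocollin 1, at 113 and 512. *Cdsn*, corneodesmosin, was at 266 and 763, an Epi/CvP ratio of 2.86. *Dsg2*, a desmoglein of simple and basal epithelium, was the gene past 3-fold toward the CvP, at 15.3 and 2.01.

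Nearly all RPKM of the 9 *Spink* genes belonged to the inhibitor of the cornified layer. *Spink5* had an RPKM of 220.0 in the CvP against 336 in the Epi, a CvP/Epi ratio of 0.655 (0.646 to 0.665). This was close to the ratios of *Klk7*, *Klk8*, *Klk9* and *Klk12*, and to that of the housekeeping gene *Rplp0* (0.644). The share of *Spink5* in the summed *Spink* RPKM was 99.5% for the CvP and 98.4% for the Epi. *Spink7*, an inhibitor known from oesophageal epithelium, was the other *Spink* gene above 1, at 0.28 and 4.45. These values are about 2 and 32 reads, and the Epi/CvP ratio was 15.9 (4.15 to 140.1). The span of *Spink7* lies within that of *Spink10* on the opposite strand, which was at 0.03 and 0.06. *Spink2*, *Spink3*, *Spink4*, *Spink8*, *Spink10*, *Spink13* and *Spink14* were at most 0.52 in either library, and *Spink3*, the secretory inhibitor of the pancreas, was at 0.17 and 0.08.

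The clade B serpins of chromosome 1 were lower in the CvP throughout. This run of 12 genes lies from 108757757 to 109505555 on NCBI37/mm9, with no row of another gene inside it. All 12 were higher in the Epi and 8 were past 3-fold, against 21.8% and 1.96% of the rows that reached an RPKM of 1. The background shifted toward the Epi at high RPKM. Among the 551 rows of at least 100 in either library 65.0% were higher in the Epi and 9.07% were past 3-fold toward it. Only some genes of the run reached 100, and the part of level was not tested. Summed RPKM of the run was 1679.5 in the CvP against 6013 in the Epi, an Epi/CvP ratio of 3.58. Without the leading genes *Serpinb12* and *Serpinb3a* the sums were 434 and 863, a ratio of 1.99. The median log2 CvP/Epi ratio was -2.09. The 8 muscle markers, 6 of the gland markers and the envelope protein *Lor* (1052 and 4379) were also past 3-fold toward the Epi. So was the keratinocyte marker *Krt14* (295 and 1140), while the 8 keratinocyte markers were split, with 4 higher in each tissue. The part of all these genes in the differences of the run was not tested.

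*Serpinb12*, an inhibitor of trypsin-like proteases, was the highest of all 87 genes in the Epi, where it was number 14 of all rows. Its RPKM was 808 in the CvP against 2892 in the Epi, an Epi/CvP ratio of 3.58 (3.54 to 3.62). *Serpinb3a*, which belongs to the squamous cell carcinoma antigens that inhibit cysteine proteases, followed at 438 and 2258, a ratio of 5.16 (5.08 to 5.24). Its copies were lower in level and farther apart between the tissues. *Serpinb3b* was at 19.6 and 126 (ratio 6.44, 6.00 to 6.91), *Serpinb3c* at 4.40 and 101 (23.0, 20.0 to 26.6), and *Serpinb3d* at 0.06 and 3.83. *Serpinb3d* was read about 2 times in the CvP and 131 times in the Epi, which gave a ratio of 63.8 (18.1 to 556). All 4 copies were past 3-fold toward the Epi, and the intervals of *Serpinb3a*, *Serpinb3b* and *Serpinb3c* did not overlap.

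The copies can be told apart by reads only where their sequences differ. Of the 75-base windows of the longest transcripts, 21.6% in *Serpinb3a*, 32.9% in *Serpinb3b*, 20.8% in *Serpinb3c* and 9.58% in *Serpinb3d* match another gene within 2 mismatches. Coding sequences of *Serpinb3b*, *Serpinb3c* and *Serpinb3d* were 93.0%, 91.5% and 88.8% identical to that of *Serpinb3a*. The 30 coding bases in which the copies differed most from *Serpinb3a* let these ratios be read beside the sequences. Capitals mark, in *Serpinb3a*, bases at which any copy differs, and in a copy, bases that differ from *Serpinb3a*.
Serpinb3a: TGctgcAACAGgTgTggaaGTCAGTTTaAC
Serpinb3b: tgctgcCacaggAgtggaagtcagtGtaaG
Serpinb3c: tCctgcCTcGggGgAggaagtcaTtttaaG
Serpinb3d: CActgcCaTGAgtgtggaaTCTCgCtCaTT
The stretch lies in the last exon of each gene, on the minus strand of chromosome 1 of NCBI37/mm9, from 108942702 to 108942731 in *Serpinb3a*, from 109051055 to 109051084 in *Serpinb3b*, from 109168312 to 109168341 in *Serpinb3c* and from 108974879 to 108974908 in *Serpinb3d*. The copies differ from *Serpinb3a* there in 4, 8 and 14 of the 30 bases, in the order given. The last coding exon of clade B serpins carries the reactive centre loop.

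The other genes of the run fell into a set past 3-fold and a set nearer to even. *Serpinb7*, or megsin, was at 9.16 in the CvP against 34.1 in the Epi (Epi/CvP ratio 3.72, 3.37 to 4.12). *Serpinb13*, an inhibitor of lysosomal cathepsins, was at 1.20 and 6.53 (5.44, 4.05 to 7.36). *Serpinb10-ps* was at 2.35 and 11.9 (5.05, 4.36 to 5.86). *Serpinb10-ps* shares 291 exon bases with *Serpinb2* on the same strand, 8.34% of its own. Within 2-fold were *Serpinb5*, or maspin (149.6 and 196, ratio 1.31), *Serpinb11* (138 and 238, 1.73), *Serpinb2*, the intracellular inhibitor of urokinase (75.2 and 93.8, 1.25), and *Serpinb8* (34.1 and 51.4, 1.51). The lower limits of all 4 intervals were above 1, the lowest being 1.20 for *Serpinb2*. Urokinase itself (*Plau*) was at 23.1 in the CvP against 15.6 in the Epi, and its receptor *Plaur* at 3.36 and 0.18.

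The clade B serpins of chromosome 13 form a run of 13 genes from 32933961 to 34094618, of which 7 reached an RPKM of 1. Of the 7, 5 were higher in the CvP and 3 were past 3-fold toward it, a number of higher genes that is not above the 78.1% of all rows that reached 1 (15.9% past 3-fold). Summed RPKM was 169 in the CvP against 74.5 in the Epi. *Serpinb1a*, an inhibitor of neutrophil elastase, had the highest level, at 112 and 56.0 (CvP/Epi ratio 2.0, 1.91 to 2.09). *Serpinb6a*, an inhibitor of cathepsin G, was at 40.3 and 13.8, a ratio of 2.93 (2.67 to 3.21) just under the 3-fold limit, and 3.53 rescaled to a common sum. Exons of *Nqo2* (3.38 and 0.62) and other genes on the opposite strand overlap *Serpinb6a*, those of *Nqo2* over 14.1% of its exon bases. The related *Serpinb6b* was at 6.20 and 1.35 (4.59, 3.54 to 6.04). *Serpinb6c* was the one gene of the run past 3-fold toward the Epi, at 0.48 and 1.73, about 18 and 64 reads (Epi/CvP ratio 3.60, 2.12 to 6.48).

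The *Serpinb9* group contains the intracellular inhibitor of granzyme B and its copies. *Serpinb9* had an RPKM of 2.13 in the CvP against 0.49 in the Epi (CvP/Epi ratio 4.35, 3.17 to 6.17). *Serpinb9e* was at 6.23 in the CvP, about 339 reads, and was listed at 0 in the Epi, so it was at least 111-fold higher against a floor of 3 reads, with an exact 95% lower limit of 89.9. *Serpinb9c*, with about 22 reads and none, was at least 7.21-fold higher against this floor, with a lower limit of 5.39. Of the *Serpinb9e* windows 57.9% match another gene within 2 mismatches, among them genes of the group that were not analysed here, so its level is uncertain between copies. *Gzmb*, the protease that *Serpinb9* inhibits, was at 0.03 in both libraries, while *Gzma* was at 38.2 in the CvP against 0 in the Epi. *Elane*, *Prtn3* and *Prf1* were at 0 in both, and *Gzma* was the 1 gene past 3-fold of the 8 found of the 14 leukocyte proteases listed. This is 12.5% of the 8, near the 10.8% of all rows that were past 3-fold toward the CvP. The part of blood cells in these values was not tested.

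**Figure D3:**
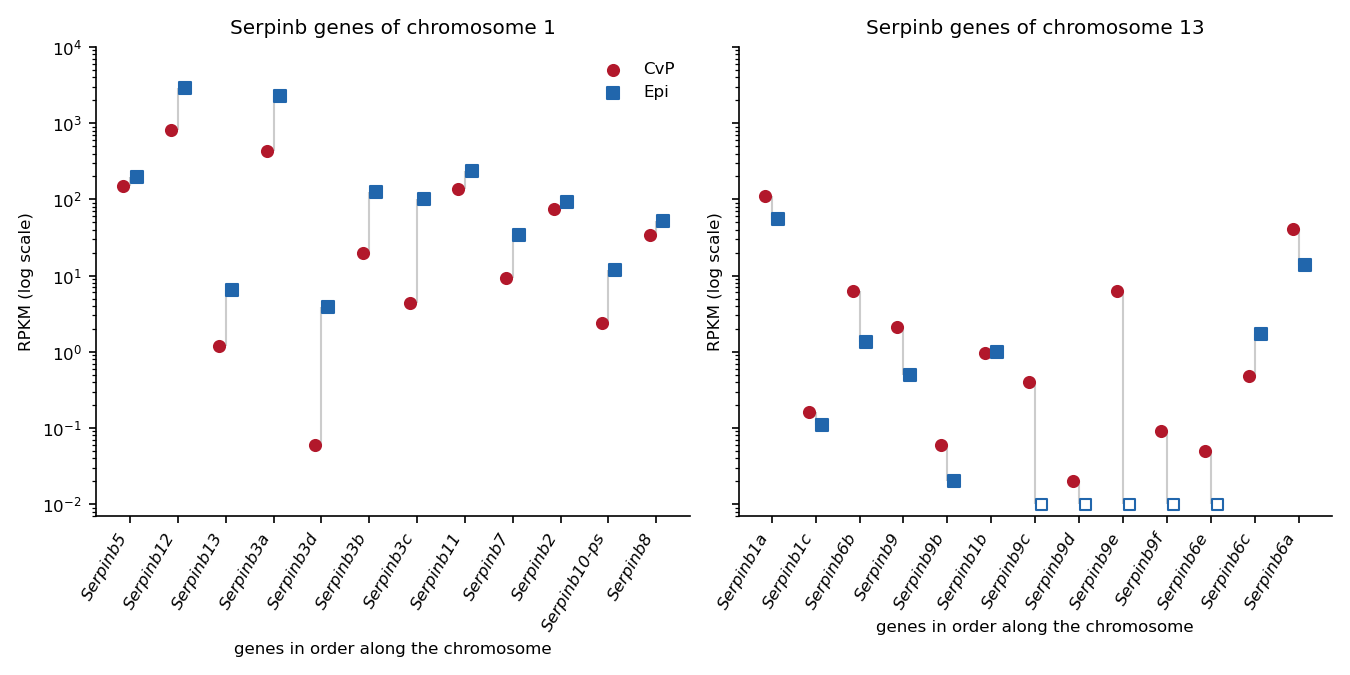
RPKM on a log axis of the clade B serpins of chromosome 1 (left, 12 genes) and chromosome 13 (right, 13 genes) in their order along the chromosome, circles for the CvP and squares for the Epi, with open symbols for an RPKM of 0 drawn at 0.01. On the left every square lies above its circle, and on the right the circle is above the square except for *Serpinb1b* (0.96 and 1.00) and *Serpinb6c* (0.48 and 1.73). On the right 6 genes were below an RPKM of 1 in both libraries, some of them with few reads. Of the 7 that reached 1, 5 were higher in the CvP, against 78.1% of all such rows.

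Clade A serpins, the group of the plasma antiproteases, held genes far from even in both directions. The 15 genes lie on chromosome 12 from 104926254 to 105652539 with no row of another gene between them. Of these, 5 reached an RPKM of 1 and all 5 were past 3-fold, 2 toward the CvP and 3 toward the Epi, against 15.9% and 1.96% of all rows that reached 1. *Serpina1e*, a copy of the alpha-1 antitrypsin gene, was at 160.2 in the CvP against 2.76 in the Epi, about 7160 and 121 reads, a CvP/Epi ratio of 58.0 (48.6 to 70.2). The next genes along the chromosome had the opposite pattern, the nearest beginning 23345 bases beyond the end of *Serpina1e*. *Serpina9*, known as centerin, was at 27.4 and 201 (Epi/CvP ratio 7.35, 7.06 to 7.65). *Serpina12*, or vaspin, an inhibitor of *Klk7*, was at 0.19 and 12.0, about 20 and 1239 reads (63.3, 40.6 to 103). *Serpina11* had an RPKM of 0.05 in the CvP against 1.61 in the Epi, about 2 and 66 reads (32.2, 8.93 to 283). At the far end of the run *Serpina3n*, a copy of the antichymotrypsin gene, was at 1.59 and 0.02, about 93 reads and 1 read (CvP/Epi ratio 79.5, 16.0 to 3651).

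The antitrypsin copies were very unequal in level. *Serpina1a*, *Serpina1b*, *Serpina1c* and *Serpina1d* together had an RPKM of 1.61 in the CvP against 0.78 in the Epi, and about 65 and 32 reads. Their coding sequences are from 96.3% to 96.5% identical to that of *Serpina1e*, and 67.8% of the *Serpina1e* windows match another gene within 2 mismatches. How reads of shared windows were assigned was not stated, so the share of each copy in the *Serpina1e* value is uncertain. The 30 coding bases in which the copies differ most from *Serpina1e*, where reads can separate them, are given with capitals as above.
Serpina1e: AaGGCgGtTTtTTGtctatgccccctatcT
Serpina1a: aaATGgTtCCtAtgtctatgccccctatcC
Serpina1b: aagCcgTtCCtAtgtctatgccccctatcC
Serpina1c: TagCcgTtCCttATtctatgccccctatcG
Serpina1d: aagTcgCtACttATtctatgccccctatcG
They are bases 1118 to 1147 of each coding sequence, in exon 5 of 5, and on the minus strand of chromosome 12 of NCBI37/mm9 the *Serpina1e* stretch runs from 105185323 to 105185352. The copies *Serpina1a* to *Serpina1d* differ from it in 8, 6, 8 and 7 bases. As in other antitrypsin genes, this exon encodes the reactive centre loop. Antitrypsin is mainly a liver protein. The 7 liver markers found summed to 5.73 and 12.6, nearly all of it *Ahsg* (5.16 and 12.3), with *Apoa2* at 0.48 and 0.14, *Alb*, *Cyp2e1* and *Ttr* between 0.02 and 0.11, and *Apoa1* and *Apob* at 0 in both.

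The remaining serpins, clades C to I, include secreted inhibitors of clotting and plasminogen activation. Of 9 genes, 3 reached an RPKM of 1, all higher in the CvP, and 2 were past 3-fold, where 78.1% of all rows that reached 1 were higher in the CvP and 15.9% past 3-fold toward it. *Serpine2*, or protease nexin 1, a secreted inhibitor of thrombin and urokinase, was at 77.6 in the CvP against 1.00 in the Epi, about 4865 and 62 reads, a CvP/Epi ratio of 77.6 (60.1 to 101). *Serpini1*, or neuroserpin, an inhibitor of tissue plasminogen activator, was at 1.46 and 0.04, about 130 and 3 reads (36.5, 14.3 to 209). Tissue plasminogen activator itself, *Plat*, was at 8.80 and 0.11, and the thrombin receptor *F2r* at 15.8 and 1.53. *Plat*, *Plaur* and *F2r* were the 3 genes past 3-fold of the 17 found of the list of plasminogen, coagulation and kinin genes, all toward the CvP. They are 17.6% of the 17, against 10.8% of all rows past 3-fold toward the CvP. The summed markers of taste cells, neutrophils, macrophages and T cells, and endothelium were also higher in the CvP. The part of these cells was not tested.

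*Serpinh1*, the collagen chaperone Hsp47, was at 25.2 in the CvP against 12.2 in the Epi (2.07, 1.91 to 2.26). Fibrillar collagens were near 0 in both libraries, with *Col1a1*, *Col1a2*, *Col3a1*, *Col5a1* and *Col5a2* between 0.04 and 0.25, and of the 10 collagen and collagen-processing genes only *Plod1* (2.69 and 0.53) was past 3-fold. The plasma serpins *Serpinc1* (antithrombin), *Serpinf2* (antiplasmin) and *Serping1* (C1 inhibitor) were at most 0.35 in either library, and *Serpinf1* was at 0.14 and 0.40.

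**Figure D4:**
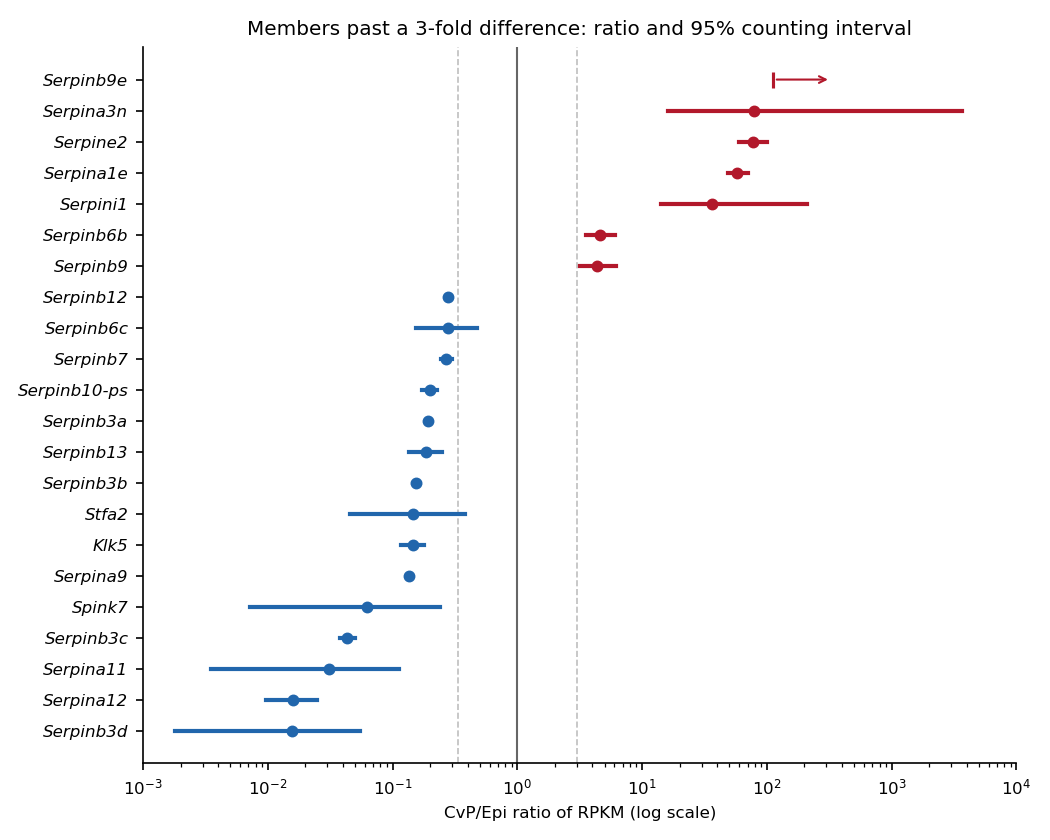
CvP/Epi ratio of RPKM on a log axis for the 22 genes past a 3-fold difference that reached an RPKM of 1, with bars for the 95% exact interval from estimated reads (counting error only); the arrow starts at the ratio of *Serpinb9e* to a floor of 3 Epi reads, since it had none there. The 7 genes to the right are all serpins, and the interval is narrow for *Serpine2* (60.1 to 101) and *Serpina1e* (48.6 to 70.2) but wide for *Serpina3n* (16.0 to 3651), which had 1 Epi read, so that these genes have no clear order. The 15 genes to the left are nearest to the limit for *Serpinb12* (0.279) and lie below 0.1 for *Serpinb3c*, *Serpinb3d*, *Serpina11*, *Serpina12* and *Spink7*.

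Among the 9 cystatins the abundant secreted inhibitors were lower in the CvP and the abundant stefins were even. *Cst3*, cystatin C, was at 116 in the CvP against 262 in the Epi (Epi/CvP ratio 2.27, 2.16 to 2.38), and *Cst6*, cystatin E/M, which inhibits legumain and cathepsin L in the epidermis, was at 13.6 and 29.7 (2.18, 2.05 to 2.32). Of the stefins, *Csta* was at 71.9 and 71.1, a CvP/Epi ratio of 1.01 (0.974 to 1.05), and *Cstb* at 91.8 and 93.0, a ratio of 0.987 (0.919 to 1.06). For both, no difference was detectable at this depth as deposited, while divided by the median ratio they were at 0.770 and 0.751 and rescaled to a common sum at 1.22 and 1.19. *Stfa3* was at 8.04 and 7.40 (1.09, 0.803 to 1.48) and *Stfa1* at 1.35 and 2.14 (0.631, 0.314 to 1.23), with intervals that include 1. *Stfa2* was the cystatin past 3-fold, at 0.41 and 2.79, about 5 and 33 reads (Epi/CvP ratio 6.80, 2.60 to 22.0). *Stfa* copies share sequence, with 83.3% of the *Stfa1* windows and 43.8% of the *Stfa2* windows matching another gene within 2 mismatches. The main match was *BC100530* (11.3 and 13.03) for *Stfa1* and *Stfa2l1* for *Stfa2*. How reads of shared windows were assigned was not stated, so the levels of *Stfa1* and *Stfa2* are uncertain between copies. *Stfa2l1* had about 5 reads in the CvP and none in the Epi, and *Cst7*, cystatin F of immune cells, about 3 reads and none. *Cstad* had about 1 read in the CvP and none in the Epi.

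Cystatins inhibit papain-type cathepsins and, in part, legumain. The list of 15 protease genes also holds the serine protease *Ctsa*, the aspartic proteases *Ctsd* and *Ctse*, and *Casp14*. Of the 15, 12 reached an RPKM of 1 and 10 of these were higher in the CvP, against 78.1% of all rows that reached 1. Past 3-fold toward the CvP were 4 (15.9% of all such rows) and toward the Epi 0 (1.96%), and the median log2 CvP/Epi ratio was 1.08 over the 12, against 0.50 over all such rows. *Ctsl*, cathepsin L, was at 187 in the CvP against 58.7 in the Epi (CvP/Epi ratio 3.19), and *Ctsz* at 12.9 and 3.73 (3.46). *Ctss*, cathepsin S of antigen-presenting cells, was at 8.16 and 1.51 (5.40) and *Ctso* at 4.74 and 0.83 (5.71). *Ctsb*, cathepsin B, was at 65.0 and 51.0, and *Lgmn*, legumain, at 10.5 and 6.79. The 10 papain-type cathepsins summed to 328 in the CvP against 138 in the Epi. *Ctsd* (494 and 634) and *Casp14* (13.4 and 14.8) were the 2 above 1 that were higher in the Epi. The macrophage and T cell markers given above moved with *Ctss*, and their part was not tested.

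**Figure D5:**
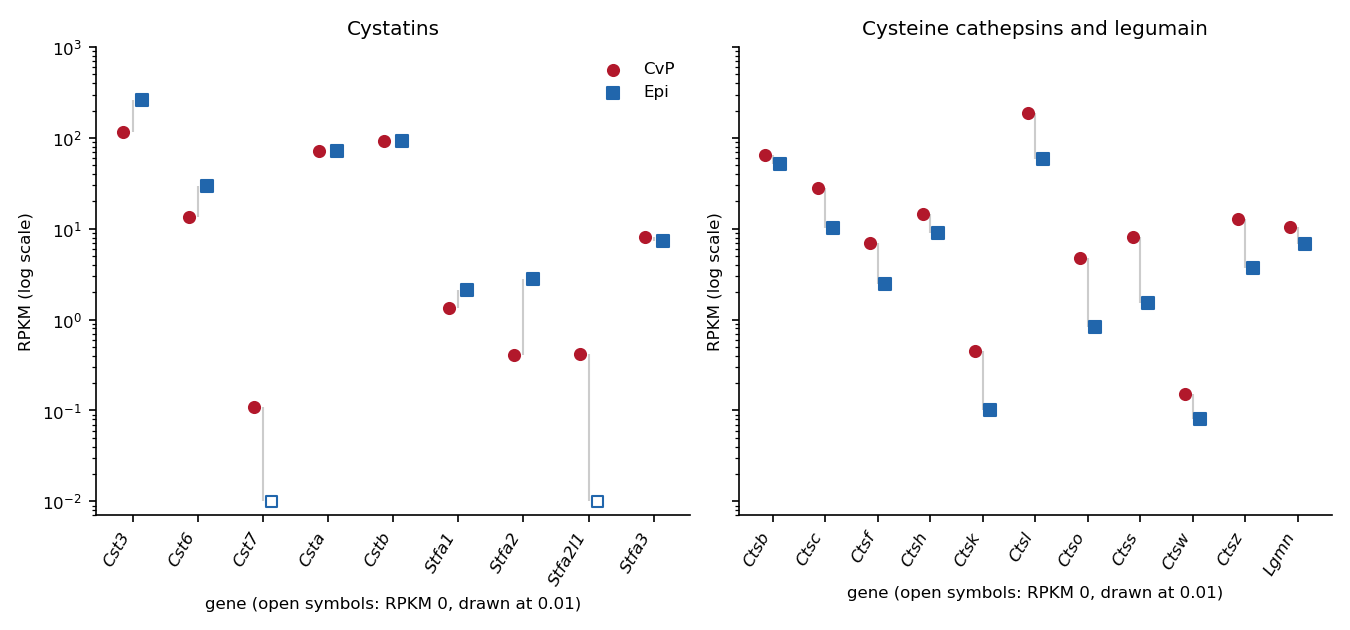
RPKM on a log axis of 9 cystatins (left) and of cysteine cathepsins with legumain (right), circles for the CvP and squares for the Epi, with open symbols for an RPKM of 0 drawn at 0.01. *Csta* and *Cstb* coincide in both tissues, *Cst3* and *Cst6* are higher in the Epi, and every protease on the right is higher in the CvP, by little for *Ctsb* (65.0 and 51.0) and by more for *Ctso* (4.74 and 0.83) and *Ctss* (8.16 and 1.51). Of all rows that reached an RPKM of 1, 78.1% were higher in the CvP. The *Ctsb* ratio (1.27) was below the median ratio of all genes (1.31), and *Ctsw* had about 5 and 3 reads. *Ctsa*, *Ctsd*, *Ctse* and *Casp14* are not drawn.

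Genes below an RPKM of 1 in both libraries numbered 41, with a highest value of 0.52. They were 9 kallikreins, 22 serpins, 7 *Spink* genes, 2 cystatins and *Cstad*, and 4 of them were listed at 0 in both libraries. At or below a floor of 3 reads in both were 19 genes, and no fold is given for these. The antitrypsin and antichymotrypsin copies apart from *Serpina1e* and *Serpina3n* were all among the 41. Levels between genes also depend on the gene model. In 20 of the 31 genes of RPKM 10 or more, the listed length was more than 2 times that of the longest GENCODE M1 coding transcript (4.70 times for *Serpinb12* and 3.49 times for *Klk10*). The same length served both tissues, so the CvP/Epi ratios are not affected by it. If RPKM was divided by that longer length, it is lower, and the reads given here, estimated with the shorter length, are too few. With the listed length *Serpina1e* would have about 11651 and 197 reads and *Serpine2* about 9064 and 115, and intervals would be narrower.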

How the data were processed

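A poly(A) RNA library of the CvP and one of the Epi were compared. Single-end reads had been mapped with Bowtie 0.12.7 to NCBI37/mm9, and the authors deposited RPKM values from ERANGE with a length per gene model. How reads with several matches were shared out is not given in the sources used here. The authors' ratio column was not used.

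Ratios were taken from the deposited RPKM values without a pseudocount. Log2 medians used RPKM + 0.1, which understates the change of low genes. A gene was past 3-fold if it also reached an RPKM of 1 in one of the libraries, and a 0 in the other library passed. Mapped reads came from the step between low values. Reads per gene were estimated with the listed length or, where shorter, the longest GENCODE M1 coding transcript (86 of 87 genes). Intervals (95%, exact) and a floor of 3 reads cover counting error only. Shared sequence was counted in 75-base windows with up to 2 mismatches. All 87 rows lay at the GENCODE M1 gene of the same symbol and strand.

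Members past 3-fold or with an RPKM of 10 were named (42 genes), with preset partner and marker genes and with other partner genes past 3-fold at an RPKM of 10. Others, such as *Klk6*, *Klk1* and *Ctss*, were named after their values were seen. The members and lists were chosen with earlier results of these data known. Depth, intervals and calls were tested on simulated data. Alternatives were other minimums, limits, pseudocounts and scalings. Python 3.11.15, numpy 2.4.6, pandas 2.3.3, scipy 1.17.1 and matplotlib 3.10.9 were used.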

Additional observations from a re-analysis of the deposited data

How the results depend on the processing

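No paired analysis was possible because the CvP and the Epi are 1 pooled library each, so no sample can be left out either. The number of genes past 3-fold toward the CvP was 7. It was 21 with no minimum RPKM, 4 and 2 at minimums of 3 and 10, 11 at a ratio limit of 2, and 4 with a pseudocount of 1. For serpins alone it was 15, 4 and 2 at these minimums (none, 3 and 10) and 4 with a pseudocount of 1. Toward the Epi the number was 15 in all, 23 with no minimum and 9 at a minimum of 10. With no minimum, calls toward the CvP were 2 for *Klk*, 1 for *Spink* and 2 for cystatins (each 0 as described), and toward the Epi 5 for *Klk* and 4 for *Spink*. At a ratio limit of 2, 1 *Klk* gene was past it toward the CvP and 3 cystatins toward the Epi. The single Epi call of *Spink* became 0 at a minimum of 10, and that of the cystatins 0 at minimums of 3 and 10 and with a pseudocount of 1. These follow from looser or stricter limits. The median log2 ratio of all members (-0.62) was 0.00 with no minimum, -1.01 divided by the median ratio and -0.35 rescaled to a common sum. For *Klk* (-0.44) it was -0.15 with no minimum, -0.73 at a minimum of 3, -0.83 divided by the median ratio and -0.17 rescaled. For serpins (-0.59) it turned to 0.26 with no minimum, where the 22 low genes enter, and was -0.79 at a minimum of 3, -0.98 divided by the median ratio and -0.32 rescaled. By the stricter limits 2 genes passed toward the CvP, and 4 at a minimum of 3 or 5. Rescaled to a common sum 5 passed, but there the limit of 10 was set on the rescaled values, which amounts to a lower minimum RPKM. All 12 *Serpinb* genes of chromosome 1 were higher in the Epi under both scalings. Past 3-fold were 8 of them divided by the median ratio and 7 rescaled to a common sum. Rescaled, the CvP/Epi ratios of *Serpinb12* (0.337) and *Serpinb6c* (0.335) were no longer past 3-fold. The members past 3-fold were then 8 toward the CvP and 13 toward the Epi. Of all calls past 3-fold, 31.8% were toward the CvP among members and 89.0% among all rows, 31.8% and 80.3% divided by the median ratio, and 38.1% and 93.1% rescaled. Leaving out the 11 genes that share over 50% of their windows with another gene, a choice made after seeing the data, gave 5 calls toward the CvP (without *Serpina1e* and *Serpinb9e*) and 15 toward the Epi. Depth limits the ratios of *Serpinb3d*, *Serpina11*, *Serpina3n*, *Serpini1* and *Spink7*, each at 3 or fewer reads in one library.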

Other observations

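Protease inhibitors of other families, from a list of 26 genes of which 20 had a row, were divided between the tissues. In the list 12 genes reached an RPKM of 1, 6 were past 3-fold toward the CvP and 1 toward the Epi. Of all rows that reached 1, 15.9% and 1.96% were past 3-fold in these directions. *Expi*, a small inhibitor with a WAP domain, was at 566 in the CvP against 7.05 in the Epi, and *Wfdc2*, of the same domain family, at 145 and 26.4. *A2m*, alpha-2-macroglobulin, was at 21.4 and 0.01, and *Timp3*, an inhibitor of metalloproteases bound to matrix, at 14.1 and 0.80. *Spock2* (1.42 and 0.14) and *Timp1* (1.15 and 0.04) were the others toward the CvP. *Wfdc12*, which lies on the side of the Epi, was at 110.0 and 490.3. *Slpi*, the leukocyte protease inhibitor of mucosal secretions, had the highest level of the list, at 1735 and 3889, and *Fetub*, a relative of the cystatins, followed at 508 and 1394, both within 3-fold.

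Of 8 genes for transglutaminases and envelope proteins, the enzymes *Tgm1* (145 in the CvP and 201 in the Epi) and *Tgm3* (953 and 1411) were within 3-fold. *Tgm2* was past 3-fold toward the CvP at a low level (2.53 and 0.13), and *Lor*, loricrin, toward the Epi (1052 and 4379). *BC100530*, a stefin-like gene within the *Stfa* run of chromosome 16 that the choice by symbol does not take, was at 11.3 and 13.03.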
